A study of Mus musculus with 4 samples.

Results

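The 2 Mb of mouse chromosome 4 that end at position 90000000 (build mm8) were examined in all 4 libraries of a chromatin immunoprecipitation and sequencing (ChIP-seq) study of total histone H3. They were cut into 2000 windows of 1 kb, of 2630717 in the genome. The region was selected on the myotube read counts themselves, because C2C12 myotubes had 1 read over a long stretch inside it, so the myotube counts in that stretch are given as a description and without a test. Of the windows, 242 lay wholly inside the stretch and 1758 in its flanks or across its edges.

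H3 is a core histone of the nucleosome, the particle around which DNA is wound along nearly all of the genome. A total H3 profile therefore covers active and silent chromatin alike, and it follows the amount of DNA present as well as the occupancy of that DNA by nucleosomes. Sequence missing from a cell line gives no reads of its own in such a profile. On mouse chromosome 4 lie Cdkn2a and Cdkn2b, neighbouring genes in the GRCm38.p6 annotation, with Mtap on one side and Dmrta1 on the other. Cdkn2a encodes an inhibitor of the cyclin-dependent kinases that drive cells out of G1 and, from another reading frame, the protein Arf, which restrains Mdm2 and so protects p53. Cdkn2b encodes a related kinase inhibitor. Loss of these inhibitors is common in immortal cell lines. The positions of that annotation belong to another build than the reads, so no gene, exon or promoter was placed on the stretch and no sequence is shown.

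The groups were C2C12 myotubes, V6.5 embryonic stem (ES) cells given SB431542, 38B9 pro-B cells and untreated V6.5 ES cells, with 1 library each. C2C12 cells are mouse myoblasts, and the myotubes had formed over 48 h in 2% horse serum with selenium, transferrin and insulin. SB431542, which blocks the type I receptor kinases of the TGF-beta pathway, was given at 10 uM for 24 h, and 38B9 is a mouse pro-B line kept in normal culture. V6.5 cells are of C57BL/6-129 background and had been grown for 2 passages off feeder fibroblasts. The genetic background of the C2C12 and 38B9 lines was not given in the sources used here, and each cell type is represented by 1 line. The files hold read positions and no expression, so the cell types were not checked against markers.

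Read depth was similar among the libraries, with 12432118 distinct autosomal positions in myotubes, 13469179 in SB431542-treated ES cells, 13015879 in pro-B cells and 13132855 in untreated ES cells. A read below means 1 distinct position and strand of a read aligned to a single place. Each ratio is one of shares of the autosomal reads, with an exact 95% interval for counting error. No input library was used here, so DNA copy number and H3 recovered per copy cannot be told apart. The file headers name another Solexa run folder for the SB431542 reads than for the other libraries, so treatment and run cannot be told apart either.

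The stretch ran over the 243108 bp between the myotube reads at 88735727 and 88978836. It held 1 read in myotubes, 1085 in SB431542-treated ES cells, 1358 in pro-B cells and 1028 in untreated ES cells. Myotubes were thus nearly without reads of 1 place there, and the other libraries had between 4.23 and 5.59 reads per kb. Per 1000000 autosomal reads, these were 0.0804 reads in myotubes (interval 0.00204 to 0.448), 80.6 with SB431542, 104 in pro-B cells and 78.3 in untreated ES cells. The myotube share was 0.00103 times that of untreated ES cells (2.60e-05 to 0.00574) and 0.000771 times that of pro-B cells (1.95e-05 to 0.00430).

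Each library was also set against its own flanks, which do not depend on the scaling between libraries. The myotube library had 0.00411 reads per kb in the stretch and 4.59 in the flanks, a ratio of 0.000895 (2.27e-05 to 0.00499). The SB431542 library had 4.46 and 4.74 reads per kb at these places, the pro-B library 5.59 and 4.63, and the untreated ES library 4.23 and 4.53. At the density of its own flanks, the stretch would have held 1117 reads in the myotube library. This takes the stretch to be as readable as the flanks. Of the windows, 23.1% inside and 10.8% in the flanks and edges were at 0 in all 4 libraries. By autosomal scaling, the expected myotube reads were 973 from untreated ES cells, 1001 from SB431542-treated ES cells and 1297 from pro-B cells.

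**Figure D1:**
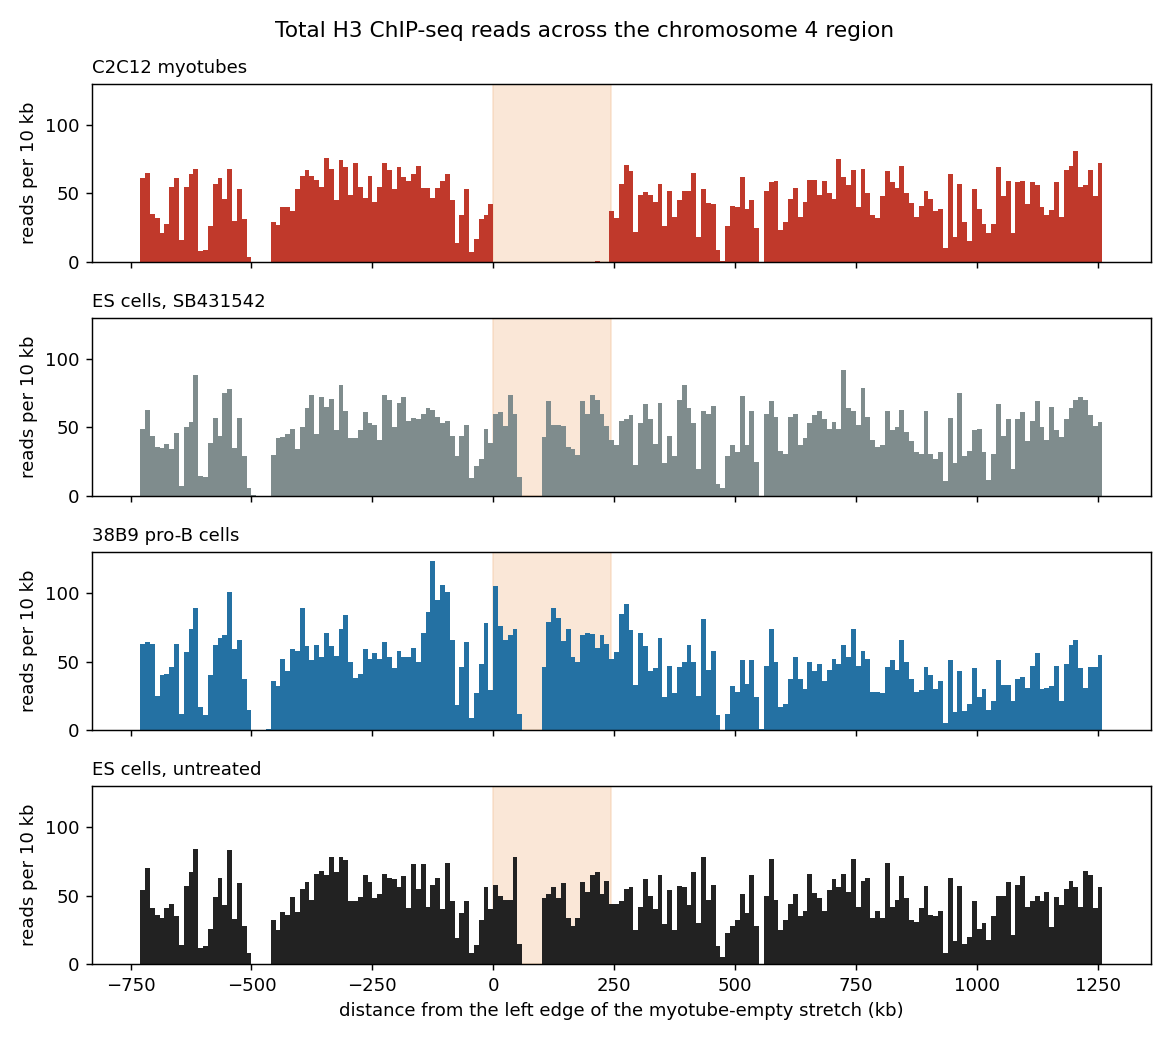
Distinct H3 reads in tiles of 10 kb (y axis) against the distance in kb from the left edge of the stretch (x axis), 1 panel per library, with the stretch shaded. Of the 24 tiles inside, 23 were at 0 in myotubes, while 4 were at 0 in each of the other libraries and the same gap of about 50 kb is seen in all panels.

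Part of the stretch was not read in any library. From 88787982 to 88838058, over 50.1 kb, no library had a read with 1 place or with 2 places. That part says nothing about myotubes, and 193 kb of the stretch remain in which the other libraries had reads. Over those 193 kb the density was 0.00518 reads per kb in myotubes, 5.62 with SB431542, 7.04 in pro-B cells and 5.33 in untreated ES cells. A similar gap lay in the left flank, where untreated ES cells had no read from 88227820 to 88278876, and 3 reads fell there in myotubes, 2 with SB431542 and 8 in pro-B cells. The longest gap of untreated ES cells in the region was thus outside the stretch.

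By windows of 1 kb, 241 of the 242 windows inside were at 0 in myotubes. In the other libraries 62 windows were at 0 with SB431542, 56 in pro-B cells and 60 in untreated ES cells, and 56 windows were at 0 in all 4 libraries. Of 143 windows inside with at least 3 reads in each of the other 3 libraries, 142 were at 0 in myotubes. Over the whole genome 0.653% of such windows were at 0 in myotubes, and on chromosome 4 outside the region 578 of 91527 were. In the flanks and edges 7 of 967 such windows were at 0 in myotubes, which is close to that background. Those 7 lay apart from each other, between 88103001 and 89837000, with 3 to 14 reads in each other library.

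The windows richest in reads inside the stretch were read in the other libraries only. In SB431542-treated ES cells the window from 88854001 to 88855000 held the most, at 15 reads, with 0 in myotubes, 7 in pro-B cells and 8 in untreated ES cells. In pro-B cells the highest was 88864001 to 88865000 at 22 reads, with 0 in myotubes, 8 with SB431542 and 4 in untreated ES cells. In untreated ES cells it was 88780001 to 88781000 at 17 reads, with 0 in myotubes, 7 with SB431542 and 10 in pro-B cells. The 3 libraries thus had their highest windows at different places. Each window was picked as the highest of its own library, and whether the places differ beyond counting error was not tested. The next windows were 88897001 to 88898000 (13 reads) and 88970001 to 88971000 (13 reads) with SB431542. In pro-B cells the next was 88741001 to 88742000 (17 reads), followed by 3 windows with 16 reads each that start at 88751001, 88861001 and 88873001. In untreated ES cells 3 windows had 13 reads each, and they start at 88777001, 88930001 and 88974001. All of these windows were at 0 in myotubes, which follows from how the stretch was chosen.

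Both edges were abrupt. The last myotube read on the left was at 88735727 on the plus strand and the first on the right at 88978836, also on the plus strand. Within 1 kb outside, myotubes had 4 reads at the left edge and 10 at the right edge. The 4 reads at the left edge lay close together, from 88735647 to 88735727. Just inside the left edge, the nearest read of SB431542-treated ES cells lay 37 bp away, that of pro-B cells 758 bp away and that of untreated ES cells 27 bp away. The next reads inside lay 808 bp away with SB431542 and 958 bp away in untreated ES cells, so few reads place this edge. At the right edge these distances were 86, 83 and 127 bp.

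The inner limit of each edge was placed by the number of reads that myotubes should have had at the level of the other libraries. At the mean scaled count of those 3 libraries, 3 myotube reads were due within 958 bp of the left edge, by 88736685, and within 304 bp of the right edge, by 88978532. By this rule the ends of the stretch lay at least 241848 bp and at most 243108 bp apart. The rule places the ends alone. Between them lie the myotube read at 88950667 and the 50.1 kb unread in every library, where no myotube reads were due. The length of 243108 bp was counted between read positions, without the length of the reads. Within 5 kb inside the left edge, myotubes had 0 reads, SB431542-treated ES cells 22, pro-B cells 43 and untreated ES cells 35. Within 5 kb inside the right edge, myotubes had 0 reads, SB431542-treated ES cells 23, pro-B cells 23 and untreated ES cells 33.

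The windows on the 2 sides of each edge were as follows. From 88735001 to 88736000, across the left edge, myotubes had 4 reads, SB431542-treated ES cells 2, pro-B cells 1 and untreated ES cells 2. The next window, from 88736001 to 88737000, had 0 in myotubes, 7 with SB431542, 6 in pro-B cells and 4 in untreated ES cells. At the right edge the window from 88977001 to 88978000 had 0 in myotubes and 4, 4 and 5 in the other libraries in the same order. From 88978001 to 88979000 it had 2 in myotubes, and from 88979001 to 88980000 it had 9 in myotubes, 4 with SB431542, 6 in pro-B cells and 1 in untreated ES cells.

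**Figure D2:**
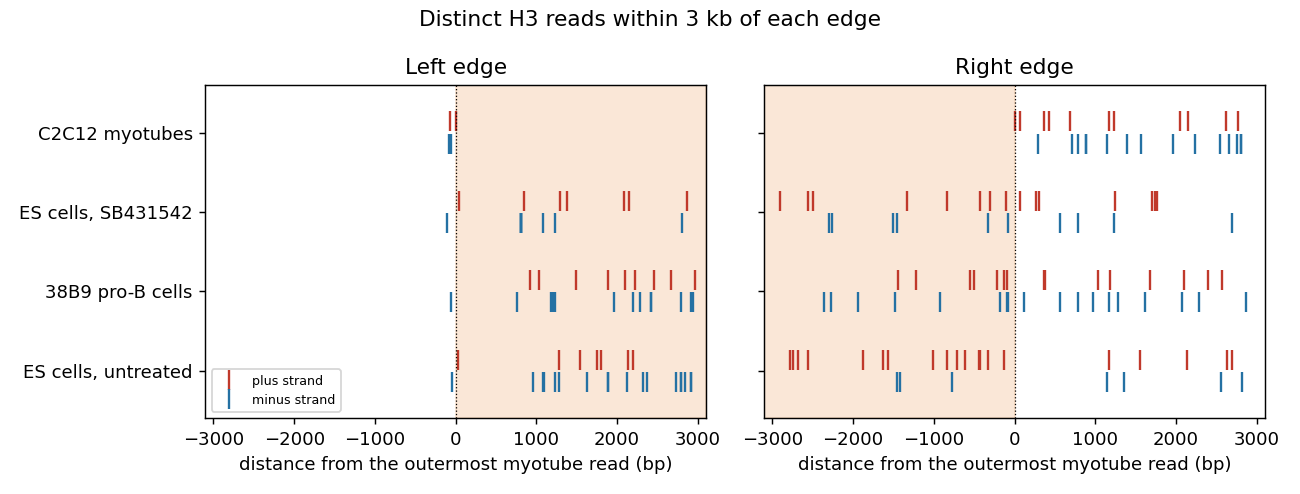
Each mark is a distinct H3 read, placed by its distance in bp from the outermost myotube read at the left edge and at the right edge (x axis), with 1 row per library and the strands in 2 colours; the stretch is shaded. Within 3 kb, myotubes had no read on the shaded side of the left edge, against 14 with SB431542, 21 in pro-B cells and 24 in untreated ES cells, and none on that of the right edge, against 14, 15 and 18.

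Sequence just outside the left edge was present in 2 copies in the reference. Reads with 2 reported places were listed there in all libraries. Within 5 kb they gave 14 lines in myotubes, 36 with SB431542, 24 in pro-B cells and 18 in untreated ES cells. All lines had a partner on the same strand at a spacing of 2130 bp. Both places of each read thus lay next to the edge, and each read was counted as 2 lines. The windows from 88733001 to 88735000 had no read with 1 place in any library. The myotube lines reached from 88731701 to 88734853. Which of the copies each read came from cannot be told, so these lines do not show that the copy nearer the edge was read. At the right edge the windows from 88976001 to 88979000 held no 2-place read in any library.

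The read that remained in myotubes lay at 88950667 on the minus strand. It was sequenced once, 215 kb from the left edge and 28.2 kb from the right edge. No other library had a read at that position and strand, but all had reads close by. Within 500 bp, SB431542-treated ES cells had 6 reads, pro-B cells 11 and untreated ES cells 4, and the nearest lay 4, 19 and 67 bp away. The site was thus readable with 1 place in every library. Whether this read came from the stretch or was placed there by error was not tested.

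Reads with 2 reported places were counted apart, since each is listed at both of its places and may come from the other one. In the stretch there were 17 such lines in myotubes, 31 with SB431542, 38 in pro-B cells and 34 in untreated ES cells. As a share of the autosomal 2-place lines, myotubes were at 0.530 times untreated ES cells (0.278 to 0.976) and at 0.457 times pro-B cells (0.242 to 0.829). SB431542-treated ES cells were at 0.856 times (0.509 to 1.44) and pro-B cells at 1.16 times (0.712 to 1.90) untreated ES cells. The myotube count was thus lower but, unlike that of reads with 1 place, not near 0. Against untreated ES cells the interval nearly reached 1, and with repeated lines removed it did so, at 0.557 times (0.291 to 1.03). Against pro-B cells it stayed below 1 with repeated lines removed, at 0.480 times (0.254 to 0.875).

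The 17 myotube lines lay between 88839113 and 88975816, 9 on the plus and 8 on the minus strand, and filled 11 of the 242 windows. Another library had a 2-place line within 500 bp of 15 of them. The densest group had 4 myotube lines, from 88883509 to 88883758. The places of origin of these reads were not matched. With reads of both kinds counted together, the myotube share was 0.0179 times that of untreated ES cells (0.0106 to 0.0285), and the longest stretch with at most 1 myotube read shortened to 134938 bp. The left edge stayed at 88735727.

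Outside the edges the myotube level was close to that of untreated ES cells. The left flank, of 736 kb, held 3348 reads in myotubes against 3387 in untreated ES cells, a ratio of 1.04 (0.995 to 1.10). The right flank, of 1021 kb, held 4723 reads in myotubes against 4579 in untreated ES cells, a ratio of 1.09 (1.05 to 1.14). Chromosome 4 outside the region was at 0.981 times (0.978 to 0.984), with 734748 against 791159 reads. Scaled to that, the left flank was at 1.06 times (1.01 to 1.12) and the right flank at 1.11 times (1.07 to 1.16). Both flank ratios to untreated ES cells were thus slightly above that of the rest of the chromosome, beyond counting error. With the same scaling, SB431542-treated ES cells were at 0.984 times (0.938 to 1.03) in the left flank and 1.05 times (1.01 to 1.10) in the right. Against SB431542-treated ES cells, by autosomal shares, myotubes were at 1.07 times (1.02 to 1.12) in the left flank and 1.04 times (0.999 to 1.08) in the right.

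The flanks were even in steps of 100 kb. Over the 17 steps clear of the edges, the myotube ratio to untreated ES cells had a median of 1.08. It was lowest from 89100001 to 89200000, at 0.922 times (432 against 495 reads), and highest from 89900001 to 90000000, at 1.22 times (604 against 524 reads). For 15 of the 17 steps the counting interval included 1. None of the steps reached a log2 ratio of 0.5 either way, where 1.91% of autosomal bins of 100 kb were higher and 3.23% lower by that rule. All 17 lay within the 0.755 to 1.24 times that hold the middle 90% of the other 1446 bins of chromosome 4. At this scale only steps that held part of the stretch passed the rule in myotubes.

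Close to the edges the counts were small. In the 10 kb outside the left edge, myotubes had 42 reads against 40 in untreated ES cells, a ratio of 1.11 (0.702 to 1.75). In the 10 kb outside the right edge they had 37 against 27 reads, a ratio of 1.45 (0.858 to 2.47). Neither interval excluded 1, but at the right edge those of other widths did. In the 5 kb outside that edge, myotubes had 37 reads against 21 in untreated ES cells, a ratio of 1.86 (1.06 to 3.35). In the 50 kb outside it they had 269 against 233 reads, a ratio of 1.22 (1.02 to 1.46). Within 20 kb the ratio was 1.18 (0.872 to 1.60). Outside the same edge, pro-B cells were at 1.56 times untreated ES cells within 20 kb (1.17 to 2.07) and 1.53 times within 50 kb (1.29 to 1.81). Their intervals within 5 and 10 kb included 1, and those of SB431542-treated ES cells did so at all widths. Each width starts at a myotube read by construction. At 50 kb the excess was thus not particular to myotubes. At the left edge the myotube ratio ran from 0.836 within 20 kb to 1.19 within 5 kb, and all 4 intervals included 1.

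**Figure D3:**
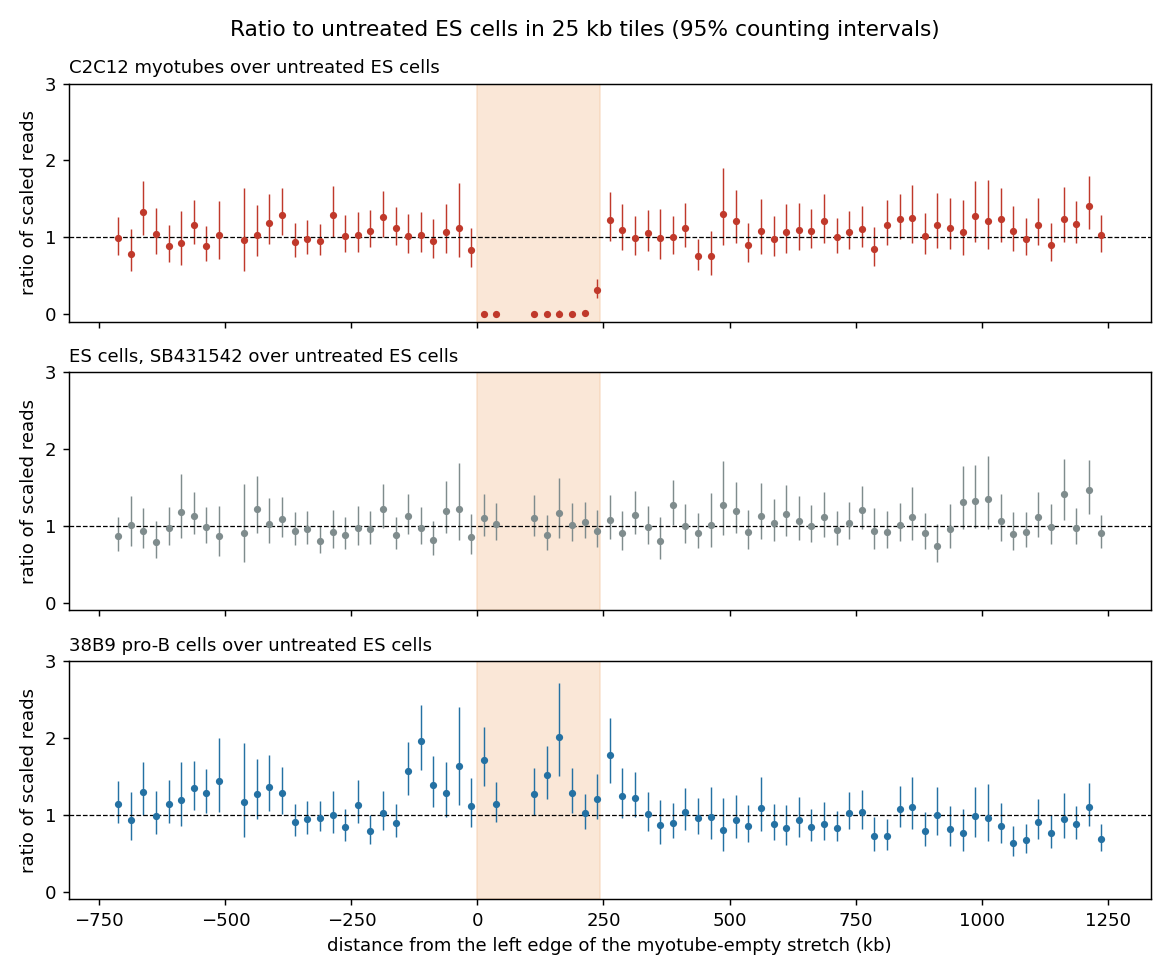
Ratio of scaled reads to untreated ES cells (y axis) in tiles of 25 kb with at least 20 untreated ES reads, against the distance in kb from the left edge (x axis), with bars for 95% counting intervals and the stretch shaded. The 7 myotube tiles inside lay at 0 to 0.00652 and the 68 flank tiles at 0.748 to 1.41; the tile at 0.310 crosses the right edge.

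The ES libraries differed little here. SB431542-treated cells had 1.03 times the untreated level in the stretch (0.944 to 1.12, 1085 against 1028 reads), 0.979 times in the left flank (0.934 to 1.03) and 1.05 times in the right flank (1.01 to 1.09). Over the 17 flank steps the ratio ran from 0.879 times (88400001 to 88500000, 537 against 596 reads) to 1.16 times (89700001 to 89800000, 413 against 347 reads). None reached the log2 ratio of 0.5, where 0.00428% of autosomal bins were higher and 0% lower by that rule.

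Pro-B cells had more reads in the stretch than untreated ES cells, at 1.33 times (1.23 to 1.45, 1358 against 1028 reads). The excess was not limited to the stretch. The whole left flank was at 1.16 times (1.11 to 1.22), and its steps were uneven. Those that start at 88100001, 88200001 and 88300001 were at 1.23, 1.27 and 1.13, and those from 88400001 and 88500001 at 0.945 and 0.961. The excess was greatest in the flank step from 88600001 to 88700000, at 1.67 times (1.48 to 1.89, 684 against 413 reads), and went on across the stretch. The steps that start at 88700001, 88800001, 88900001 and 89000001 had pro-B ratios of 1.34, 1.52, 1.25 and 1.22. Further right the pro-B ratio was below 1 in every step, with 4 counting intervals wholly below 1, and it went down to 0.819 times from 89800001 to 89900000 (371 against 457 reads). Chromosome 4 outside the region was below 1 in pro-B cells too, at 0.964 times (0.961 to 0.967). The median of its other 1446 bins of 100 kb was 0.910. Scaled to the chromosome outside the region, the right flank was at 0.969 times (0.929 to 1.01).

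Among the 17 flank steps of pro-B cells, 1 was higher by the rule of a log2 ratio of 0.5 and none lower, where 7.93% of autosomal bins were higher and 8.18% lower. With the stretch cut into 3 parts of 81.0 kb, pro-B cells had 1.37, 1.52 and 1.16 times the untreated ES reads from left to right. The pro-B ratio of the stretch was above that of 89.4% of the other autosomal tiles of its length, and 1029 of those 9709 tiles were as high or higher. Myotubes against pro-B cells gave 0.899 times in the left flank (0.858 to 0.942) and 1.17 times in the right flank (1.12 to 1.22). The direction in the right flank depended on its width, with 0.853 times over the first 100 kb (0.757 to 0.962) and 1.04 times over the first 500 kb (0.983 to 1.11). Their ratio was lowest from 88600001 to 88700000, at 0.631 times (412 against 684 reads), and highest from 89700001 to 89800000, at 1.41 times (389 against 288 reads). Of the 17 steps 1 was lower by the rule and none higher, where 9.64% and 9.27% of autosomal bins were.

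The stretch was then set beside 9709 other autosomal tiles of its length with a mean of at least 100 reads in the other 3 libraries. This is a description, since the stretch was found by its myotube reads. The tiles were also laid so that 1 of them matched the stretch exactly. A gap elsewhere could be split between tiles and look less low, so the rank of the stretch depends on this grid. Its myotube ratio to untreated ES cells was the lowest of all 9710 tiles, whose median was 1.00. At or below 0.5 times were 14 tiles (0.144%), and at or below 0.1 times were 6 (0.0618%), the stretch among them. The other 5 lay on chromosomes 4 and 19 and were low in pro-B cells too. On chromosome 4, the tiles from 121312200 and 121555308 had 1 read each in myotubes, 5 and 0 in pro-B cells, and 330 and 321 in untreated ES cells. Those from 111587880 and 111830988 had 4 and 10 reads in myotubes, 4 and 10 in pro-B cells, and 524 and 370 in untreated ES cells. The tile on chromosome 19, from 9239412, had 11 reads in myotubes, 14 in pro-B cells and 323 in untreated ES cells.

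With pro-B cells as the comparison in place of untreated ES cells, the stretch was the only tile at or below 0.1 times (0.0103% of 9710), and the next lowest was at 0.153 times. At this length and on this grid, no other autosomal tile was thus at or below 0.1 times in myotubes against both untreated ES and pro-B cells.

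**Figure D4:**
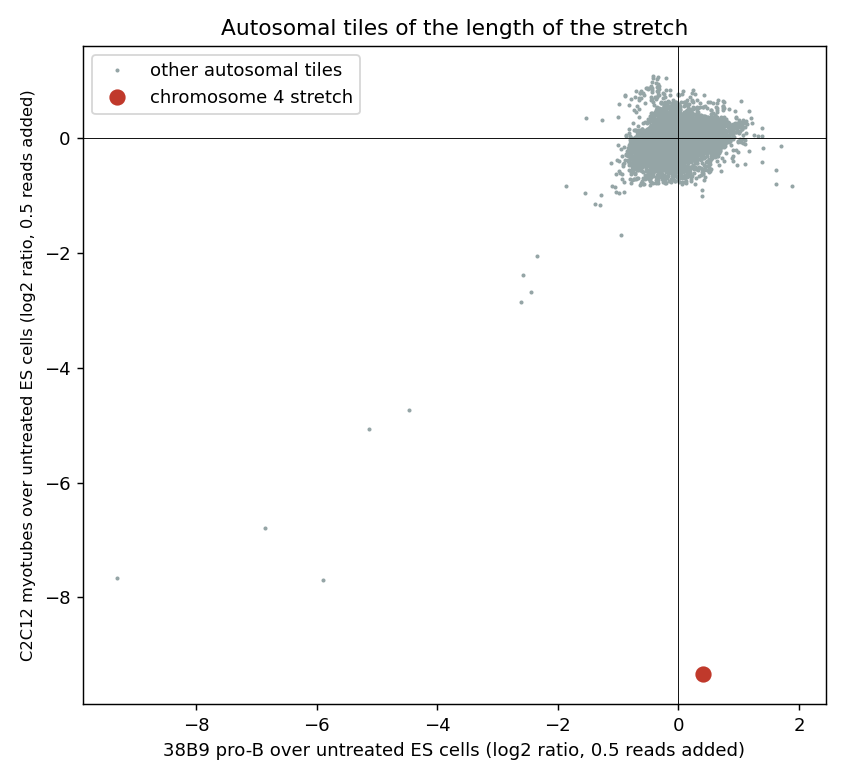
Each point is an autosomal tile of 243 kb, by its log2 ratio to untreated ES cells in pro-B cells (x axis) and in myotubes (y axis), with 0.5 reads added to each count. The stretch lies at the bottom with a pro-B ratio above 0, while the other 5 tiles at or below 0.1 times in myotubes are low on both axes.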

How the data were processed

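The authors' deposited files list signed positions (unit: other, no count or scaling), one for each place of an aligned read, negative on the minus strand. Per the file headers, Bowtie (version not stated) placed the reads on mm8 with 36 seed bases, up to 2 mismatches in the seed, a mismatch quality limit of 70 and no more than 2 places. The sections were read as reads with 1 and with 2 places, which was inferred from their names and the options. Per the labels' protocols, sonicated chromatin was precipitated with an H3 antibody, amplified for 18 cycles and cut at 150 to 300 bp.

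Positions were counted with Python 3.11.15 and numpy 2.4.6, keeping 1 read per position and strand. Intervals are exact conditional binomial (scipy 1.17.1) and cover counting error alone: amplified reads carried no molecular identifiers and are not independent molecules. Each group had 1 library, so no test between conditions was made and nothing was checked against replicates. The expected myotube reads at an edge use a floor of 3 counts. The rule for empty windows and the intervals were tested on simulated counts. Emptied windows that met the read minimum were all called, which the rule makes certain, and windows left unchanged were called as well. The region, windows and rules were chosen with earlier results of these data known. The windows named inside the stretch are those with a myotube read and the 3 highest of each other library, ties included. The flank steps named are the lowest and highest, besides other steps named for pro-B cells after their values were seen. Alternatives were repeats, 2-place reads, scaling, reference, edges, strands, flank widths and window rules.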

Additional observations from a re-analysis of the deposited data

How the results depend on the processing

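No paired analysis was possible because each group had 1 library, and no library could be left out of a group. Among 101 recomputed values, 82 stayed the same, 16 moved and 3 reversed. A value was the same if it lay inside the counting interval of the reported value or, for counts, within 1.5 times of it. The length of the stretch was allowed the 958 and 304 bp of the edge rule together. The myotube ratio in the stretch stayed at or below 0.0470 under all 19 of its alternatives. With 2-place reads it was 0.0179 against untreated ES and 0.0135 against pro-B cells. With edges 5 kb further out it was 0.0470 and 0.0352, since reads outside the edges entered. On the plus strand alone both were 0, as the 1 read was on the minus strand. With 2-place reads the stretch measured 134938 bp. At least 5 reads per window left 65 empty windows, and windows of 5 kb left 33 of 34, both through fewer windows. The reversals were in the right flank. With 100 kb it was at 1.34 (1.19 to 1.52) for pro-B cells against untreated ES, in place of 0.934 (0.896 to 0.974), and at 0.853 for myotubes against pro-B cells, in place of 1.17. With 500 kb it was at 1.00 (0.946 to 1.06) for pro-B cells, a reversal within counting error. For myotubes against pro-B cells it was at 1.04, in the same direction as reported. The cause was not tested. Otherwise flanks of 100 kb gave 0.968 (left) and 1.14 (right) for myotubes and 1.32 (left) for pro-B cells against untreated ES, and 0.735 (left) for myotubes against pro-B cells. Against SB431542-treated ES, the right flank was at 1.04 (0.999 to 1.08) for myotubes and 0.892 (0.856 to 0.929) for pro-B cells. The counting interval of the myotube level in the stretch reached 0.00574 times the untreated ES level for reads with 1 place and 0.0285 with 2-place reads; both describe a stretch chosen by its myotube reads.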
